A study of Mus musculus with 12 samples.

Results

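The 10 genes described here are transcripts of the circadian clock: Dbp, Tef, Per1, Per2, Per3, Nr1d1, Nr1d2, Ciart, Bmal1 and Npas2. They were chosen by symbol from the 55414 genes of the count table, with results of these data already known, and all 10 were found and were detected in every library. Their values in the comparisons and correlations below are therefore a description. RNA was sequenced from the inferior vena cava (IVC) of 12 C57BL/6 mice aged 10 wk, on day 7 after an operation. In 6 mice (3 male, 3 female) the infrarenal aorta and IVC were punctured with a needle to make an arteriovenous fistula (AVF), which sends arterial blood into the vein. In 6 sham mice (3 male, 3 female) the same laparotomy and clamping were done without the puncture. All 12 wild-type mice had isoflurane and extended-release buprenorphine, and the hour of harvest is not given in the sources used here. Each library came from 1 mouse.

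The circadian clock is a feedback loop of transcription that runs in most cells of the body, those of the vessel wall included. BMAL1 pairs with CLOCK or NPAS2 and binds E-boxes, which turns on the Per and Cry genes, whose proteins then repress that pair, and also turns on Nr1d1, Nr1d2, Dbp, Tef and Ciart. The nuclear receptors encoded by Nr1d1 and Nr1d2 repress Bmal1 and Npas2 through ROR elements, so in many tissues Bmal1 and Npas2 transcripts peak at about the time when Dbp, Nr1d1 and their companions are at their trough. DBP and TEF act on D-boxes, which the repressor NFIL3 also binds.

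The promoters of 4 of these genes are shown because Dbp, Per3 and Ciart on the one side and Bmal1 on the other lay at opposite ends in the female AVF mice below, and because these elements wire the loop. Each is the GRCm39 reference from 250 bases before to 50 bases after the first base of the canonical GENCODE transcript, 5′ to 3′ on the strand of the gene, with motif matches in capitals.
Dbp promoter (chr7:45354262-45354561, + strand): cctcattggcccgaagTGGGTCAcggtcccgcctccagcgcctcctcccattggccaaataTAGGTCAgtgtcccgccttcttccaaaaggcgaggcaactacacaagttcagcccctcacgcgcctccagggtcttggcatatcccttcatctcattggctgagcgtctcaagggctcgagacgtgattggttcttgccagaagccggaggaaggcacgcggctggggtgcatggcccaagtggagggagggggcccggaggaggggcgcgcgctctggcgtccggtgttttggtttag
Per3 promoter (chr4:151129091-151129390, - strand): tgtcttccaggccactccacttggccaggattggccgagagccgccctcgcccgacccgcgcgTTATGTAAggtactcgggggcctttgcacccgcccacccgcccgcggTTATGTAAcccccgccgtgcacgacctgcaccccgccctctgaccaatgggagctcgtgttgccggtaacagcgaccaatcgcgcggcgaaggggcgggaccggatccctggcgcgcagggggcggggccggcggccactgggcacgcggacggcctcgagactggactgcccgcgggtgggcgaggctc
Ciart promoter (chr3:95789507-95789806, - strand): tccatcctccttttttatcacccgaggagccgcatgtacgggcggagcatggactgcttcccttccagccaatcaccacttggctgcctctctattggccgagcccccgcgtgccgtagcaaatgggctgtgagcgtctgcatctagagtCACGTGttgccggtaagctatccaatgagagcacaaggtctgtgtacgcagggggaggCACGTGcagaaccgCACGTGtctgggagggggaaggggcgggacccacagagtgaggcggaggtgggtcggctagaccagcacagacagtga
Bmal1 promoter (chr7:112806393-112806692, + strand): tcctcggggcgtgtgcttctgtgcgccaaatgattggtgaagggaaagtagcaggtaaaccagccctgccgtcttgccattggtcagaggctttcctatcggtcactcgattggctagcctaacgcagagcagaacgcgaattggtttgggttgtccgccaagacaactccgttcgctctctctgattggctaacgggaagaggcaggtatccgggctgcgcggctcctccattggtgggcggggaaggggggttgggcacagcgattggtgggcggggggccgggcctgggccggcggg
Both strands were searched for the E-box CACGTG, the related E′-box CACGTT, the D-box TTATGTAA or TTACGTAA, the ROR element TAGGTCA or TGGGTCA and the cAMP element TGACGTCA. The capitals in Dbp are 2 ROR elements, those in Per3 are 2 D-boxes and those in Ciart are 3 E-boxes, at -100, -42 and -28 from the start site. None of these letters occur in the Bmal1 window. Tef and Per1 hold 1 E-box each, Nr1d1 holds an E′-box, Per2 holds a D-box and an E′-box, and no motif matched in Nr1d2 or Npas2. Of the 10 promoters, 3 hold an E-box, 2 an E′-box, 2 a D-box, 1 a ROR element and 0 a cAMP element. Over 21593 promoters of the same length the shares are 7.83%, 5.01%, 1.08%, 6.12% and 2.45%. A match is a description of the letters and not a bound site.

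The libraries held 15177881 to 22717423 counts, and the 10 genes had 7 to 5847 counts in a library. Levels are given as counts per 1000000 of the normalized library size (CPM). Markers of smooth muscle summed to between 2240 and 4800 CPM over all 12 libraries. Those of endothelium summed to between 1530 and 2600 CPM, so RNA of vessel wall cells was present in each. These markers do not tell the IVC from other vessels. Markers of hepatocytes summed to 2920 CPM in male AVF replicate 2 and to 8490 CPM in female AVF replicate 2, against at most 4.35 CPM elsewhere. Counts from ribosomal RNA genes took 46% of the library of female AVF replicate 1 and 2.39% to 12.6% of the others. Calls that rest on the liver-bearing libraries are given with and without them. Of the fold changes, only those of Dbp and Bmal1 between female and male AVF are given both ways. The IVC was sequenced whole, so fewer cells of a type and less RNA per cell cannot be told apart.

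Among the targets of the loop, Dbp (chr7:45354512-45359627 in GRCm39) encodes a transcription factor, and its RNA cycles strongly in many mouse tissues. Dbp measured 41.6, 54.1 and 49.5 CPM in male AVF, 14.8, 13.9 and 12.2 CPM in female AVF, 28, 70.4 and 69.8 CPM in male sham and 40.4, 53 and 69.1 CPM in female sham. The 3 female AVF mice lay below all 9 other mice. The mean was 13.7 ± 1.29 CPM (SD, n = 3) in female AVF and 48.4 ± 6.33 CPM (SD, n = 3) in male AVF. Tef (chr15:81686622-81711064), a related factor of the same family, measured 113, 119 and 149 CPM in male AVF, 83.5, 58 and 69.5 CPM in female AVF, 106, 149 and 148 CPM in male sham and 131, 163 and 150 CPM in female sham. Its female AVF values also lay below all others, at 70.4 ± 12.8 CPM against 127 ± 19.6 CPM in male AVF (SD, n = 3 each).

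**Figure D1:**
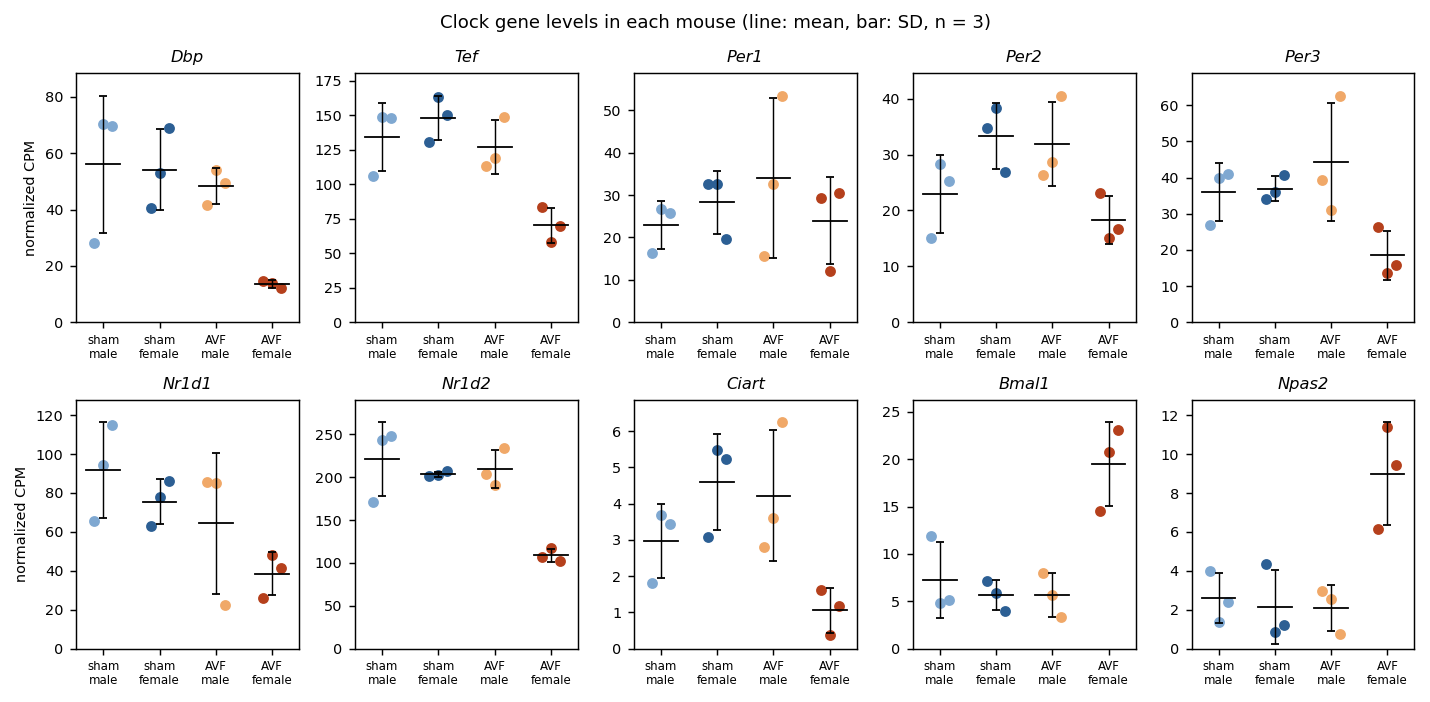
Normalized CPM of the 10 clock genes (vertical axes, each from 0) in each of 12 mice, grouped by operation and sex, with the mean as a line and the SD as a bar (n = 3). The female AVF mice lie below the 9 others for Dbp, Tef, Per3, Nr1d2 and Ciart and above them for Bmal1 and Npas2.

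The Period genes encode the repressors that close the loop. Per3 (chr4:151081373-151129140) measured 39.4, 31 and 62.6 CPM in male AVF, 26.2, 13.6 and 15.7 CPM in female AVF, 26.9, 40 and 41.1 CPM in male sham and 34, 36 and 40.7 CPM in female sham. Female AVF was again lowest, but its replicate 1 at 26.2 CPM came close to male sham replicate 1 at 26.9 CPM. Per2 (chr1:91343700-91387069) measured 26.4, 28.7 and 40.5 CPM in male AVF, 23.2, 15.1 and 16.6 CPM in female AVF, 15.1, 28.4 and 25.2 CPM in male sham and 34.8, 38.3 and 26.9 CPM in female sham. Female AVF lay below male AVF and below female sham for Per2, and overlapped male sham. Per1 (chr11:68986035-69002300), which also responds rapidly to glucocorticoids and to cAMP signalling, measured 15.7, 32.7 and 53.4 CPM in male AVF, 29.2, 12.1 and 30.5 CPM in female AVF, 16.3, 26.7 and 25.7 CPM in male sham and 32.5, 32.7 and 19.7 CPM in female sham. No pair of groups was separated for Per1.

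The nuclear receptor genes are the repressors of the second arm. Nr1d2 (chr14:4230545-4266624) was the most abundant of the 10 by CPM, with 204, 191 and 234 CPM in male AVF, 107, 117 and 102 CPM in female AVF, 171, 244 and 248 CPM in male sham and 201, 203 and 207 CPM in female sham. The 109 ± 7.59 CPM (SD, n = 3) of female AVF stood apart from the lowest other mouse, at 171 CPM. Nr1d1 (chr11:98658752-98666188) measured 85.5, 85 and 22.6 CPM in male AVF, 26.2, 47.9 and 41.3 CPM in female AVF, 65.8, 94.3 and 115 CPM in male sham and 62.8, 77.9 and 85.9 CPM in female sham. All female AVF values lay below all sham values, but the lowest Nr1d1 of the 12 mice was that of male AVF replicate 3. Ciart (chr3:95785815-95789991), a further repressor of the BMAL1 pair, was scarce, at 2.8, 3.6 and 6.25 CPM in male AVF, 1.62, 0.384 and 1.17 CPM in female AVF, 1.8, 3.68 and 3.43 CPM in male sham and 3.08, 5.47 and 5.24 CPM in female sham. Its lowest value rests on 7 counts.

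The activators ran the other way. Bmal1 (chr7:112806152-112914735) measured 8.01, 5.65 and 3.35 CPM in male AVF, 14.5, 20.8 and 23.1 CPM in female AVF, 11.9, 4.78 and 5.12 CPM in male sham and 7.16, 5.89 and 3.97 CPM in female sham. The 19.5 ± 4.49 CPM of female AVF compared with 5.67 ± 2.33 CPM in male AVF (SD, n = 3 each), and no other mouse reached 14.5 CPM. Npas2 (chr1:39232705-39402323), which can take the place of Clock, measured 2.98, 2.53 and 0.725 CPM in male AVF, 6.15, 11.4 and 9.43 CPM in female AVF, 3.98, 1.39 and 2.41 CPM in male sham and 4.34, 0.848 and 1.21 CPM in female sham. Female AVF lay above the 9 other mice here too.

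Measured per kilobase of exon, which allows genes to be compared, Nr1d1 (25.8 ± 5.97 CPM per kb, SD, n = 6), Nr1d2 (23.4 ± 3.21), Tef (17.1 ± 2.43) and Dbp (15.9 ± 5.16) led in sham. The Period genes followed, at 4.28 ± 1.23 CPM per kb for Per2, 3.47 ± 0.52 for Per3 and 3.34 ± 0.866 for Per1. Ciart (1.45 ± 0.529), Bmal1 (0.559 ± 0.247) and Npas2 (0.431 ± 0.272) were lowest. Within each of these 3 sets neighbours overlapped in their ranges over the 6 mice.

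**Figure D2:**
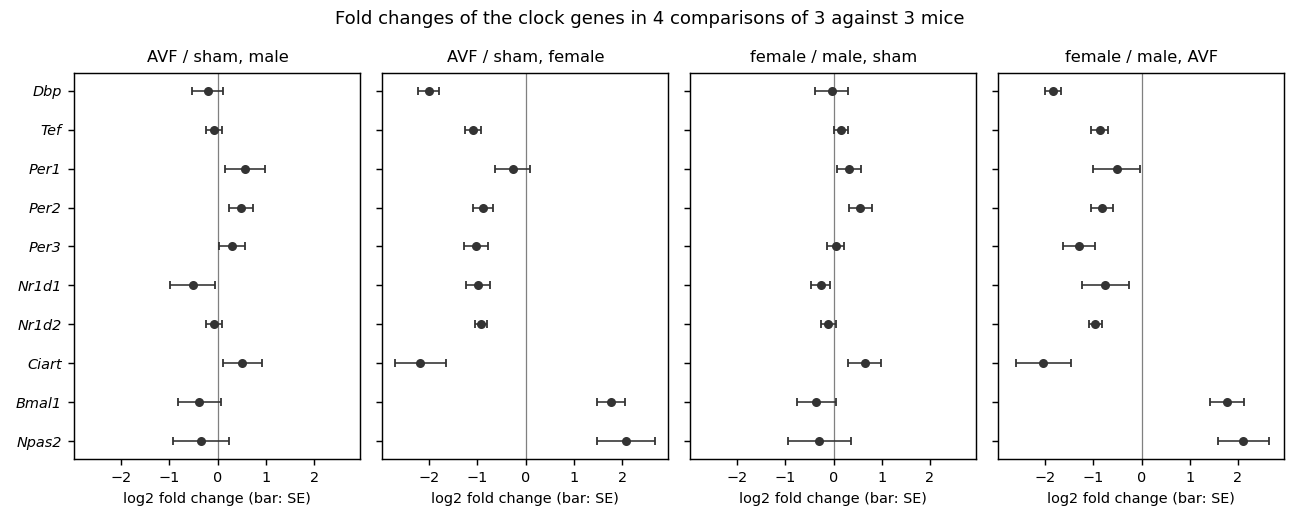
Log2 fold change of the 10 genes (horizontal axes) with its standard error in 4 comparisons of 3 against 3 mice. Dbp is at -2.01 for AVF against sham in female mice and at -1.84 for female against male AVF. The 10 genes lie from -0.52 to 0.57 for AVF against sham in male mice and from -0.36 to 0.64 for female against male sham.

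The first comparison of the design asks what the fistula changed in the vein, over both sexes. None of the 10 genes had groups that did not overlap, against 6.06% of all 15912 genes tested, and 0 of 10 passed an adjusted p of 0.05 by the edgeR quasi-likelihood test, against 13.8% of all genes. At an unadjusted p under 0.05 there were 3 of 10, and DESeq2 and the exact test of edgeR also called 0. The median log2 fold change of the 10 was -0.31, beside -0.01 over all genes tested. The log2 fold changes were -0.83 ± 0.40 (SE) for Dbp, -0.52 ± 0.21 for Tef, -0.70 ± 0.32 for Nr1d1 and -0.41 ± 0.21 for Nr1d2. They were 0.96 ± 0.44 for Bmal1 and 1.23 ± 0.60 for Npas2. The Period genes and Ciart lay between -0.51 and 0.18.

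Each sex was also fitted alone. In female mice, AVF lay below sham without overlap for 7 genes (Dbp, Tef, Per2, Per3, Nr1d1, Nr1d2 and Ciart) and above it for 2 (Bmal1 and Npas2), against 12.2% and 13.4% of all 15165 genes tested. Summed markers of other cells separated in the same mice: those of brown adipocytes were at 16.3 to 208 CPM in female AVF and 437 to 1470 CPM in female sham, and those of macrophages at 545 to 985 CPM and 310 to 488 CPM. All of these markers were detected, and their part in the clock gene values was not tested. The log2 fold changes were -2.01 ± 0.22 for Dbp, -1.09 ± 0.17 for Tef, -0.92 ± 0.12 for Nr1d2, -0.98 ± 0.25 for Nr1d1 and -2.18 ± 0.52 for Ciart (SE). They were -1.03 ± 0.25 for Per3, -0.89 ± 0.21 for Per2, -0.27 ± 0.37 for Per1, 1.77 ± 0.29 for Bmal1 and 2.08 ± 0.61 for Npas2. The Npas2 value was 3.13 ± 0.40 without female sham replicate 1, which had the highest Npas2 of the sham mice. Passing an adjusted p of 0.05 by edgeR were 4 of 10 (Dbp, Tef, Nr1d2 and Bmal1), against 1.12% of all genes by edgeR. DESeq2 called 9 of 10, and no share over all genes is given for it. The 4 were kept without female AVF replicate 2, and 0 of 10 passed when any of the other 5 female libraries was left out.

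In male mice, all 10 genes overlapped between AVF and sham, against 27.4% of all 15089 genes that did not. None passed the edgeR test, against 2.11% of all genes, and none had an unadjusted p under 0.05 or passed by DESeq2. Log2 fold changes ran from -0.52 ± 0.46 (SE) for Nr1d1 to 0.57 ± 0.41 for Per1, with -0.21 ± 0.32 for Dbp and -0.38 ± 0.45 for Bmal1. The Per1 value was 0.08 without male AVF replicate 3, in which Per1, Per2, Per3 and Ciart were the highest of the 12 mice and Bmal1, Npas2 and Nr1d1 the lowest. Bmal1 turned to 0.22 without male sham replicate 1, the sham mouse with the lowest Dbp and the highest Bmal1.

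The second comparison set female against male AVF, and its female libraries are those of the comparison just given. Here 6 genes (Dbp, Tef, Per2, Per3, Nr1d2 and Ciart) were lower in females without overlap and 2 (Bmal1 and Npas2) higher, against 4.55% and 3.84% of 22123 genes tested. The log2 fold changes were -1.84 ± 0.16 for Dbp, -2.04 ± 0.57 for Ciart, -1.29 ± 0.33 for Per3, -0.96 ± 0.14 for Nr1d2, -0.87 ± 0.18 for Tef and -0.82 ± 0.23 for Per2 (SE). They were 1.77 ± 0.35 for Bmal1, 2.11 ± 0.52 for Npas2, -0.52 ± 0.49 for Per1 and -0.75 ± 0.48 for Nr1d1. By edgeR, 1 of 10 (Dbp) passed an adjusted p of 0.05, against 0.0316% of all genes by edgeR. DESeq2 called 6, with no share over all genes given. Dbp no longer passed when any AVF library other than male replicate 1 was left out. Without both libraries that held hepatocyte RNA, 0 of 10 passed and the log2 fold changes were -1.78 ± 0.23 for Dbp and 1.73 ± 0.43 for Bmal1, close to those of all 6 libraries.

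**Figure D3:**
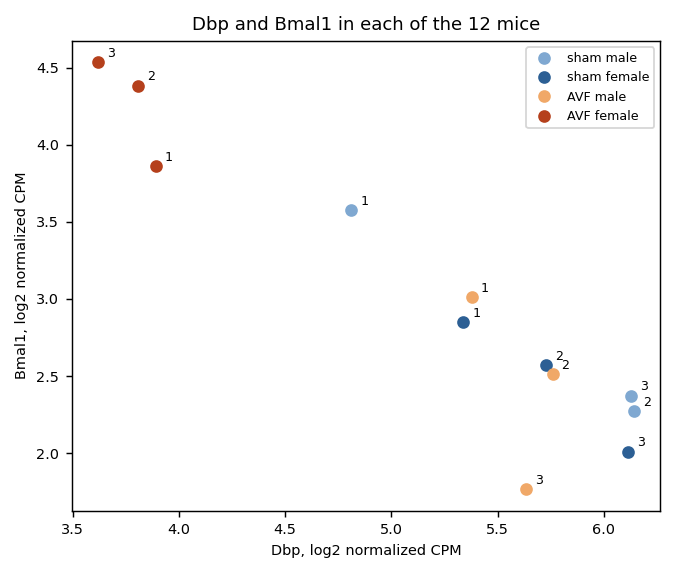
Bmal1 against Dbp, both as log2 normalized CPM, with 1 point for each of 12 mice, coloured by group and numbered by replicate within the group. The 3 female AVF mice lie at the upper left, with Dbp at 3.89, 3.81 and 3.62 and Bmal1 at 3.86, 4.38 and 4.54, and male sham replicate 1 lies nearest to them.

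Set against the other 9 mice together, the 3 female AVF mice were lower without overlap for 5 of the 10 genes and higher for 2, against 1.25% and 0.798% of 15912 genes. This split was drawn after values were seen, and the 10 genes were chosen with results known, so the counts and shares are a description only. The difference between log2 Dbp and log2 Bmal1 in a mouse was 0.03, -0.58 and -0.91 in female AVF. It was 2.37, 3.25 and 3.86 in male AVF, 1.23, 3.87 and 3.75 in male sham and 2.49, 3.16 and 4.10 in female sham. Each female AVF library stood apart in some other measure, and so did libraries of other groups. In female AVF, ribosomal RNA counts were high in replicate 1 and hepatocyte RNA was present in replicate 2. In its replicate 3 erythroid markers summed to 19600 CPM, against at most 10700 CPM elsewhere, and brown adipocyte markers to 16.3 CPM, the lowest of the 12. Hepatocyte RNA was also present in male AVF replicate 2. Skeletal muscle markers summed to 1520 CPM in female sham replicate 3, against at most 67.8 CPM elsewhere. The part of these in the clock gene values was not tested. Whether the female AVF mice were taken at another hour of the day than the rest was not tested, since no hour is given.

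In sham veins the question is whether the sexes differ without a fistula. All 10 genes overlapped between female and male sham, and 0 passed by edgeR, against 0.0818% of all 21992 genes, with 1 at an unadjusted p under 0.05 and 0 by DESeq2. Log2 fold changes were -0.04 ± 0.34 for Dbp, 0.15 ± 0.15 for Tef, -0.36 ± 0.40 for Bmal1 and 0.64 ± 0.34 for Ciart (SE). The Bmal1 value turned to 0.21 without male sham replicate 1, and that of Npas2 moved from -0.30 to -1.34 without female sham replicate 1.

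The difference between the sexes in their response to the fistula was fitted over all 12 mice. The interaction was -1.82 ± 0.42 (SE, log2) for Dbp, -1.04 ± 0.24 for Tef, -1.39 ± 0.35 for Per2, -1.36 ± 0.39 for Per3, -0.87 ± 0.20 for Nr1d2 and -2.71 ± 0.69 for Ciart. It was 2.11 ± 0.59 for Bmal1, 2.39 ± 0.93 for Npas2, -0.86 ± 0.60 for Per1 and -0.49 ± 0.59 for Nr1d1. None passed an adjusted p of 0.05 by edgeR, against 0% of 22163 genes. At an unadjusted p under 0.05 there were 8 of 10, and DESeq2 called 0. The median interaction was -0.96 for the 10 and -0.00 over all genes tested.

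Within the 6 sham mice, Dbp was set against each other gene of the 10. In log2 CPM, Dbp correlated with Per3 (Pearson r = 0.985, exact permutation p = 0.00694, adjusted 0.0417; Spearman rho = 0.829, exact p = 0.0583, adjusted 0.117) and with Nr1d2 (r = 0.88, exact p = 0.00278, adjusted 0.0417; rho = 0.943, exact p = 0.0167, adjusted 0.0857). It correlated inversely with Bmal1 (r = -0.966, exact p = 0.00694, adjusted 0.0417; rho = -0.829, exact p = 0.0583, adjusted 0.117). The tests were two-sided and adjusted over the 18 relations of Dbp with the other 9 genes in AVF and in sham. No relation passed by Spearman after adjustment. The 10 genes were chosen with results of these data known, so these p-values are a description. The remaining 6 relations in sham had r between -0.669 (Npas2) and 0.855 (Tef), and none passed. Without replicate 1 of each sham sex, the mice farthest from the median of Dbp, r was 0.973 for Per3, 0.674 for Nr1d2 and -0.731 for Bmal1. For Tef, Per1, Per2, Ciart and Npas2 r changed sign, so these relations rest on those mice. In AVF the Dbp values fell into separate clusters of 3 by sex, so no correlation can be given there.

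**Figure D4:**
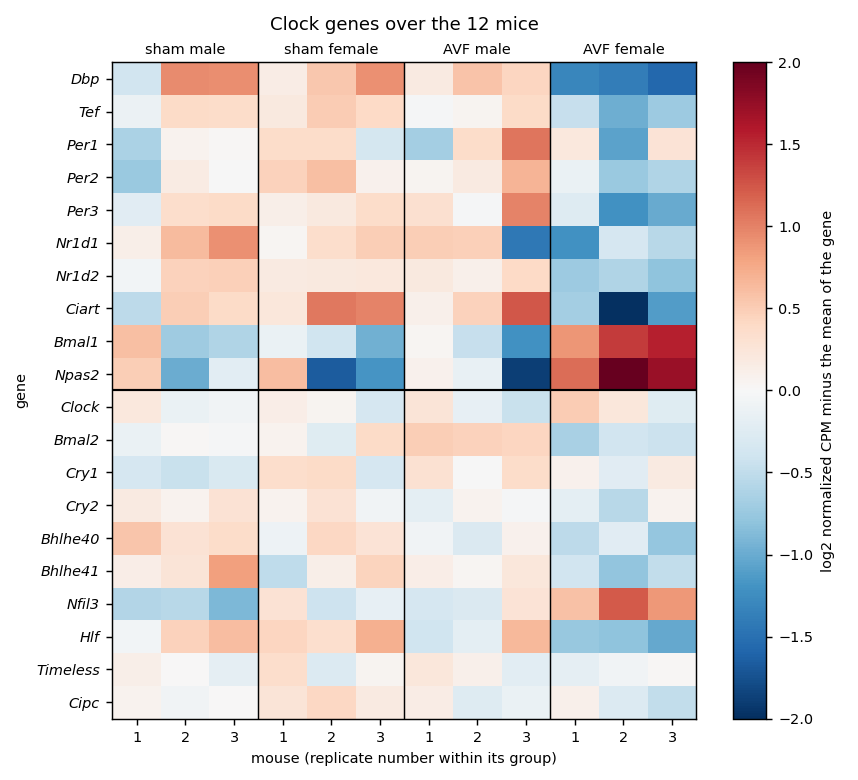
Log2 normalized CPM minus the mean of the gene (colour, limited to 2 on either side of 0) for the 10 clock genes above the line and 10 further genes of the core loop below it (rows), over 12 mice in 4 groups (columns, numbered by replicate). In female AVF the first 8 rows are mostly blue and Bmal1 and Npas2 are red, and male AVF replicate 3 has a low Nr1d1 beside high Period genes.

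Of 33 other clock genes, 2 were lower in AVF than in sham over both sexes by edgeR, Bhlhe40 among them, and none was higher. Over all 15912 genes tested 13.8% passed, a larger share than among the 33. Of the 33, 9 had an unadjusted p under 0.05, and the median log2 fold change was -0.02. Bhlhe40, an E-box repressor, fell from 71 ± 10.2 CPM in sham to 47.4 ± 9.94 CPM in AVF (SD, n = 6), a log2 fold change of -0.58 ± 0.14 (SE, adjusted p = 0.022 by edgeR). The groups overlapped, and Bhlhe40 did not pass without the 2 liver-bearing libraries, when 0 of 33 were called. With single libraries left out, Bhlhe40 passed in all 12 fits, and 1 to 3 of the 33 were called, the fewest without female AVF replicate 3 or female sham replicate 2. Brown adipocyte markers summed to between 16.3 and 208 CPM in AVF and between 93.6 and 1470 CPM in sham, with 3 of 6 lower in AVF, and macrophage markers to between 545 and 985 CPM in AVF and between 310 and 557 CPM in sham, with 5 of 6 higher. All of these markers were detected, and their part in the differences was not tested.

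In female mice, 1 of the 33 passed by edgeR, against 1.12% of all genes. Hlf, the third factor of the family of Dbp and Tef, measured 25.6, 24.8 and 21.2 CPM in AVF and 58.3, 54.7 and 70.4 CPM in sham. It fell by 1.37 ± 0.15 on the log2 scale (SE, adjusted p = 0.0293 by edgeR), and DESeq2 called 6 of the 33. Hlf passed without female AVF replicate 2 and did not pass when any of the other 5 female libraries was left out. In male mice Hlf measured 32.7, 37.9 and 67.9 CPM in AVF and 41.6, 59.4 and 66.5 CPM in sham. There 0 of 33 passed by edgeR, against 2.11% of all genes, with 8 at an unadjusted p under 0.05 and 5 by DESeq2. Nfil3, whose protein competes with these factors at D-boxes, measured 11.9, 18.4 and 14.3 CPM in female AVF and 4.19 to 9.56 CPM in the other 9 mice, a log2 fold change of 0.98 ± 0.26 (SE, adjusted p = 0.112 by edgeR) in female mice.

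Between female and male AVF, 0 of 33 passed by edgeR, against 0.0316% of all genes, with 11 at an unadjusted p under 0.05. DESeq2 called 1 (Cdkn1a, the cell cycle inhibitor p21). The lowest unadjusted p values in the core loop and its outputs were those of Cdkn1a (0.87 ± 0.19, adjusted p = 0.997 by edgeR) and Bhlhe41 (-0.70 ± 0.16, adjusted p = 0.997 by edgeR), the partner repressor of Bhlhe40. Fbxl21, a ubiquitin ligase subunit that acts on cryptochromes, had -1.20 ± 0.53 (adjusted p = 0.997 by edgeR). Clock (0.27 ± 0.24), Cry1 (-0.22 ± 0.20) and Cry2 (-0.17 ± 0.19) had small differences (SE, adjusted p = 0.997 for each by edgeR). Clock, the partner of BMAL1, measured 83.2 to 136 CPM in male AVF and 95.6 to 162 CPM in female AVF.

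In sham, 0 of 33 passed between the sexes by edgeR, against 0.0818% of all genes, with 6 at an unadjusted p under 0.05. DESeq2 and the exact test of edgeR each called 1 (Usp2). Usp2, a deubiquitinase whose RNA cycles in many tissues, measured 29.7, 37.9 and 23.8 CPM in female sham and 14.8, 18.2 and 16.4 CPM in male sham. In the interaction, 0 of 33 passed by edgeR, against 0% of all genes, and 0 by DESeq2, with 8 at an unadjusted p under 0.05. The lowest of these were Usp2 (-1.40 ± 0.31) and Coq10b (-0.97 ± 0.22), a mitochondrial coenzyme Q gene (SE, log2, adjusted p = 0.96 for each by edgeR). Rorb was at or below 2.27 CPM in 10 of 12 mice, and its differences rest on few counts. It had a log2 fold change of -2.39 ± 0.57 in male mice (SE, adjusted p = 0.0741 by edgeR).

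Glucocorticoid-induced genes and immediate early genes were examined because handling, anaesthesia and stress can act on Per1 and on the clock. Of 10 glucocorticoid-induced genes, which include Per1, none passed by edgeR in any of the 6 comparisons, with 0 to 3 at an unadjusted p under 0.05. DESeq2 called 1 (Cdkn1a, female against male AVF) over the same comparisons. Between female and male AVF, 6 of the 10 had a log2 fold change below 0 and 4 above it, with a median of -0.31 beside 0.01 over all genes. Of the 4 above it, Zbtb16, a transcription factor induced by glucocorticoids, measured 126, 100 and 137 CPM in female AVF and 95.1, 49 and 47.9 CPM in male AVF, a log2 fold change of 0.91 ± 0.28 (SE, adjusted p = 0.997 by edgeR). Klf9, another such gene, measured 333 to 380 CPM in female AVF and 313 to 400 CPM in male AVF.

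All 10 immediate early genes, which are switched on within minutes of a stimulus, had a log2 fold change below 0 between female and male sham, with a median of -1.10 beside 0.01 over all genes. None passed by edgeR, 6 had an unadjusted p under 0.05, and DESeq2 called 5 and the exact test of edgeR 4. Egr3 measured 2.2, 2.08 and 2.42 CPM in female sham and 6.25, 7.5 and 4.83 CPM in male sham (log2 fold change -1.47 ± 0.24, SE, adjusted p = 0.189 by edgeR). Ier2 measured 10.5, 5.77 and 11 CPM in female sham and 21.6, 19.7 and 16.7 CPM in male sham (-1.09 ± 0.25, SE, adjusted p = 0.322 by edgeR). Between female and male AVF the 10 genes also lay below 0, with a median of -0.50, none past the edgeR test and 1 at an unadjusted p under 0.05. All 10 clock genes overlapped between the same sham groups.

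Outside these lists, 15766 genes were ranked by their Pearson r with Dbp in log2 CPM over the 12 mice, as a description, since the 12 mice include the female AVF cluster. The highest were Cerox1 (r = 0.918), Bhlhb9 (0.913), Agap2 (0.904), Ccdc166 (0.902) and Ephx1 (0.896). Ephx1, the microsomal epoxide hydrolase, measured 38.5 to 54.4 CPM in female AVF and 56.4 to 90.8 CPM in the other 9 mice. The lowest were Rnf144a (r = -0.923), Knop1 (-0.866), Jaml (-0.846), Ube2j2 (-0.84) and Mc2r (-0.838). Rnf144a, a ubiquitin ligase gene, measured 65.7, 64.4 and 66 CPM in female AVF and 34.9 to 50.6 CPM in the other 9 mice. Over the same mice r with Dbp was 0.962 for Nr1d2, 0.936 for Tef, 0.89 for Hlf, -0.944 for Bmal1 and -0.808 for Nfil3.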

How the data were processed

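RNA from 12 IVC samples was sequenced as stranded poly-A libraries. The authors trimmed reads with Trimmomatic 0.39, aligned them with STAR 2.7.7a to GRCm39 and counted them per gene and strand with RSEM 1.3.3. The deposited table holds the resulting expected counts, not normalized. Dbp, Nr1d1 and Per3 overlap genes on the opposite strand (Sphk2, Thra and Uts2), which stranded counting keeps apart. Here the expected counts were rounded and normalized by TMM, and groups were compared with the quasi-likelihood test of edgeR 4.0.16 in R 4.3.3, with Benjamini-Hochberg adjustment over all genes tested and a threshold of 0.05. As in the study, genes over 1 CPM in at least 2 samples were tested for AVF against sham, and genes with over 12 counts over the 12 samples in the other comparisons. Log2 levels use a prior count of 1. Standard errors were taken from the F statistic of the test. No separate cultures or batches are given. The p-values set a difference against the spread between mice within the groups compared. For AVF against sham over both sexes, that spread includes any difference between the sexes.

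The 10 genes and the lists of other genes were chosen with earlier results of these data known. Besides the 10, the text names the genes of the lists that passed, of the rest the 2 with the lowest p in each list over the comparisons, Clock, Cry1, Cry2, Hlf and Nfil3, and the 5 genes most like and most unlike Dbp. Klf9 was named after its values were seen. Single genes of the lists that are called but unnamed are not reported here. Comparisons within 1 sex were made comparisons of their own after values were seen. Same-numbered female and male AVF mice deviated together (r = 0.243, 0.696 and 0.488), against a mean r of -0.218 for mice of other numbers. The highest r was that of replicate 2, in which hepatocyte markers summed to 2920 CPM in male AVF and 8490 CPM in female AVF. The part of this RNA in the r values was not tested, so they cannot tell whether these mice share more than a number. In female against male AVF, a block for the number left the calls in clock genes as they were. Gene names and promoters come from GENCODE M39, which names 54749 of the 55414 genes. Alternatives were DESeq2 1.42.0, the exact test of edgeR, other normalization and filters, and each sample left out. Shares of all genes called are by edgeR at an adjusted p. None is given for counts by DESeq2, by the exact test or at an unadjusted p, so those counts have no background beside them. The scripts were tested on simulated data.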

Additional observations from a re-analysis of the deposited data

Results flagged for a closer look

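Per2 lay on opposite sides of sham in the sexes. In log2 CPM each of the 3 female AVF mice lay below the mean of female sham, by -0.87 on average, and each of the 3 male AVF mice lay above the mean of male sham, by 0.50 on average. Neither sex passed an adjusted p of 0.05 by edgeR when fitted alone, and the male groups overlapped. The fitted log2 fold change in male mice, 0.48 ± 0.25 (SE), was 0.26 without male AVF replicate 3 and 0.28 without male sham replicate 1. This opposite movement itself was not tested, and in the interaction of operation and sex Per2 did not pass an adjusted p of 0.05 by edgeR. Over 20 searches of the 10 clock genes in 6 AVF or 6 sham mice, no mouse lay far enough from the rest to be named, where chance names about 1 in 20.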

How the results depend on the processing

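In AVF against sham, the 2 other clock genes called became 0 with the fold change threshold of the study, 0 without the liver-bearing libraries, 0 in male mice alone and 1 in female mice alone, 4 with sex as a covariate and 5 with DESeq2. The 0 called of the 10 became 4 in female mice alone. In female against male AVF, the 1 called of the 10 (Dbp) became 6 with DESeq2, 0 without the liver-bearing libraries and 0 in a fit of all 12 samples, and the 0 other genes became 1 with DESeq2. In sham, the 0 other genes became 1 with DESeq2 and 1 with the exact test of edgeR. In female mice, the 4 called of the 10 became 9 with DESeq2 and 9 with the exact test, and the 1 other gene became 6, 3 and, in a fit of all 12 samples, 6. In male mice, the 0 other genes became 5 with DESeq2 and 2 with the exact test. The cause of these changes was not tested. Where libraries were left out, the smaller number of samples and the loss of those libraries cannot be told apart.

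Leaving out each replicate in turn gave 0 to 1 of the 10 and 1 to 3 of the others for AVF against sham, 0 to 1 and 0 for female against male AVF, 0 to 4 and 0 to 2 in female mice, 0 and 0 to 1 in male mice, and 0 and 0 for sham and for the interaction. In AVF against sham the 1 of the 10 was Tef, without male AVF replicate 3. With the replicate number as a block, the others were 5 for AVF against sham and 2 in male mice, and in female mice 0 of the 10 and 0 of the others, where 0 genes passed in all. The deviations of same-numbered AVF and sham mice correlated between -0.144 and 0.175. With so few mice this cannot tell whether they share more than a number. The block changed no other call. Of the fold changes of the 10 genes, 1019 of the alternative values lay within 1 standard error of the reported one and 31 moved further, most of them when 1 sex was fitted alone. The 1019 include 60 under the fold change threshold, which equal the reported values by construction. The sign turned in 7 of 240 values for AVF against sham and 9 of 150 for sham. It turned in 1 of 150 in female mice and 9 of 150 in male mice, and in 0 for the other comparisons. The counts called for the interaction were the same under each alternative run. For the 3 correlations called in sham, the only alternative run was a prior count of 0.25, which barely changes genes at these counts and so shows nothing of their stability. None of the 3 passed by Spearman. Depth limits Ciart and Npas2 most.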
